A study of Bos taurus with 8 samples.

Results

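The genes described here are 8 genes of red blood cell hemoglobin and heme synthesis, HBA, HBB, ALAS1, ALAS2, FECH, SLC4A1, AHSP and HEMGN, of the 26804 genes measured in bovine oocytes collected in summer and winter. They were taken from the table by their symbol, and each of the 8 matched 1 gene. They were chosen by the TPM of HBA and HBB in these same libraries, where HBA was abundant and HBB near 0, so the levels of this pair are given as a description without a test. Oocytes were aspirated from dry, multiparous beef cows of a single herd, housed together and sampled in both seasons, whose follicular growth had been synchronised and stimulated with hormones, were stripped of cumulus cells at the germinal vesicle stage, and were pooled, with RNA of a pair of cows in each library. The summer group had 4 libraries, A, B, C and E, and the winter group had 4 libraries, A, B, D and E, with no other treatment in either group. Each season was 1 aspiration session, and the effects of season and of that session cannot be told apart. Only oocytes of the better quality grades were kept, and the paper reports a smaller share of the top grade in summer. The grades in each library are not given, so effects of season and of oocyte grade cannot be told apart either. Values are TPM, which correct for gene length and add up to the same total in each library. TPM does not record how many reads lie behind a value, so the depth is unknown. Means are given ± SD with n = 4 per season, and each difference is the summer mean minus the winter mean of log2(TPM + 1), a scale that makes the differences of low genes look smaller.

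Hemoglobin carries oxygen in red blood cells as a tetramer of alpha-type and beta-type globin chains, each of which holds a heme group. Red cell precursors make both chains in balanced amounts, from gene clusters on separate chromosomes. Heme is built in mitochondria and cytosol by a chain of enzymes that opens with aminolevulinate synthase and closes with ferrochelatase, which places iron into the porphyrin ring. Aminolevulinate synthase exists as a housekeeping form, ALAS1, which every cell uses for cytochromes and other heme proteins, and an erythroid form, ALAS2. AHSP is the chaperone that stabilises free alpha-globin chains, SLC4A1 is the anion exchanger of the red cell membrane, and HEMGN is a nuclear protein of blood-forming cells.

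HBA, the alpha-globin gene, was among the more abundant transcripts of these oocyte pools. It stood at 2156 TPM in summer A, 2815 in summer B, 2601 in summer C and 709 in summer E, against 1115 in winter A, 3845 in winter B, 534 in winter D and 2515 TPM in winter E. The seasons overlapped over nearly their whole range, with a low library in each and the highest value in winter B. HBA made up from 0.0709% to 0.282% of all TPM in summer and from 0.0534% to 0.385% in winter. Its rank among all genes ran from 19 to 189 in summer libraries and from 11 to 246 in winter libraries. HBB, the adult beta-globin gene, was listed at 0 in all 4 summer libraries, while winter A held 0.173 TPM, winter B 0.346, winter D 0 and winter E 2.01 TPM. In winter E, where HBB was highest, it amounted to 0.0799% of the HBA value. The library with the most HBA, winter B, held 0.00900% as much HBB.

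The other erythroid members were at or near 0. ALAS2, the erythroid aminolevulinate synthase, was listed at 0 in all 8 libraries. AHSP was listed at 0 in summer A, B and C and at 0.580 TPM in summer E, against 0 in winter A and D, 0.523 in winter B and 0.358 TPM in winter E. AHSP was thus above 0 both in summer E, which held the lowest HBA of its season, and in winter B, which held the highest HBA of all. SLC4A1 ranged from 0 to 0.241 TPM in summer and from 0 to 0.463 TPM in winter. HEMGN had the highest mean of this group, at 0.982, 1.16, 1.71 and 0.387 TPM in summer A, B, C and E, against 0.175, 1.16, 0.774 and 0.477 TPM in winter A, B, D and E. The housekeeping members stood well above them. ALAS1 held 69.8, 65.5, 71.3 and 86.9 TPM in summer A, B, C and E, against 108, 80.5, 106 and 59.1 TPM in winter A, B, D and E. FECH, the ferrochelatase gene, held 38.8, 23.4, 28.7 and 37.4 TPM in the same summer libraries, against 33.9, 21.0, 34.6 and 27.3 TPM in the winter libraries. By level the order was HBA, ALAS1 and FECH, whose ranges did not overlap one another, followed by the means of HEMGN, HBB, AHSP and SLC4A1, whose ranges did, and by ALAS2 at 0.

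**Figure D1:**
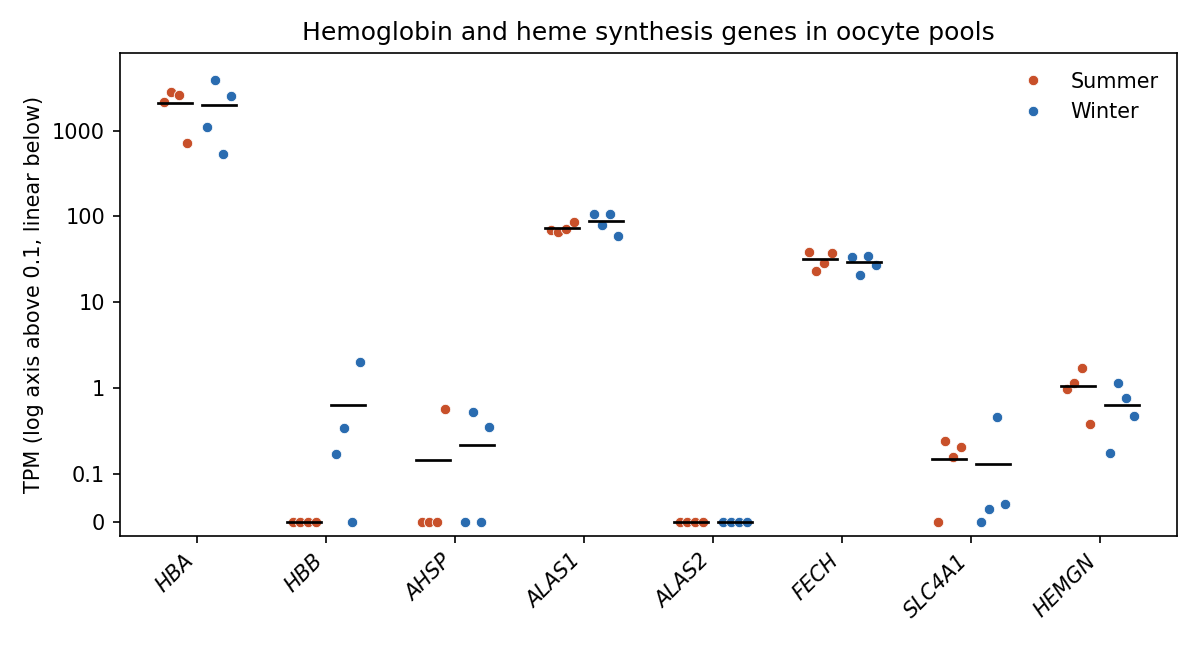
TPM of the 8 genes in each library, with summer left of winter, 1 point per library and a bar at the season mean; the axis is logarithmic above 0.1 TPM and linear below. HBA lies between 534 and 3845 TPM, ALAS1 and FECH between 21.0 and 108 TPM, and the other 5 genes at or below 2.01 TPM.

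HBA was also one of the more variable of the abundant genes. Its highest library was 7.21 times its lowest, against 1.82 times for ALAS1 and 1.85 times for FECH. The coefficient of variation of HBA over the 8 libraries was 56.6%, and the median over the 261 genes with a mean of at least 500 TPM was 23.1%, with 11 of them more variable than HBA. Both seasons shared this spread, with a ratio of highest to lowest of 3.97 in summer and 7.21 in winter.

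The neighbours of HBA and HBB in their gene clusters were read next. In the RefSeq gene order of assembly ARS-UCD2.0, used here for names and neighbours alone, the alpha-globin cluster holds HBZ, HBM, HBA, HBA1 and HBQ1. HBM, the mu-globin gene, was detected in every library, at 6.11, 4.53, 13.0 and 5.25 TPM in summer A, B, C and E, against 0.372, 5.20, 3.23 and 4.95 TPM in winter A, B, D and E. HBQ1, the theta-globin gene, stood at 12.8, 7.76, 4.56 and 11.3 TPM in those summer libraries, against 3.72, 7.66, 6.42 and 3.18 TPM in the winter libraries. Both were thus present in all 8 libraries but at most 1.60% of the HBA value of the same library. HBZ and HBA1 had no match by symbol and were not analysed here. HBA1 is a near-identical copy of HBA, so the HBA value is uncertain where reads of the copies were shared or divided.

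Genes of the beta-globin cluster were absent from most libraries. Of its 6 genes in the table, HBE1_1, HBE1_2, HBE2 and HBG, the embryonic and fetal beta-type genes, were listed at 0 in all 8 libraries. HBE4 appeared in summer B alone, at 1.56 TPM, and HBB in 3 winter libraries. LOC528470 and LOC787671, which the RefSeq order also places in this cluster, were not matched and not analysed here. The surroundings of the clusters differed as well. Of the 5 nearest protein-coding genes on each side of the alpha cluster, 9 were in the table and 7 exceeded 10 TPM in every library, among them SNRNP25, a spliceosome component, at 389 to 484 TPM in summer and 246 to 299 TPM in winter. NPRL3, whose introns carry the distal alpha-globin enhancers in human and mouse, stood at 28.8 to 35.0 TPM in summer and 21.5 to 29.1 TPM in winter. Around the beta cluster, the 7 flanking genes in the table, all olfactory receptor genes, were listed at 0 in every library. Outside the clusters, the globins of muscle and nerve were low, with MB (myoglobin) at most 1.54 TPM, CYGB (cytoglobin) under 1 TPM and NGB (neuroglobin) at most 1.83 TPM in any library.

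**Figure D2:**
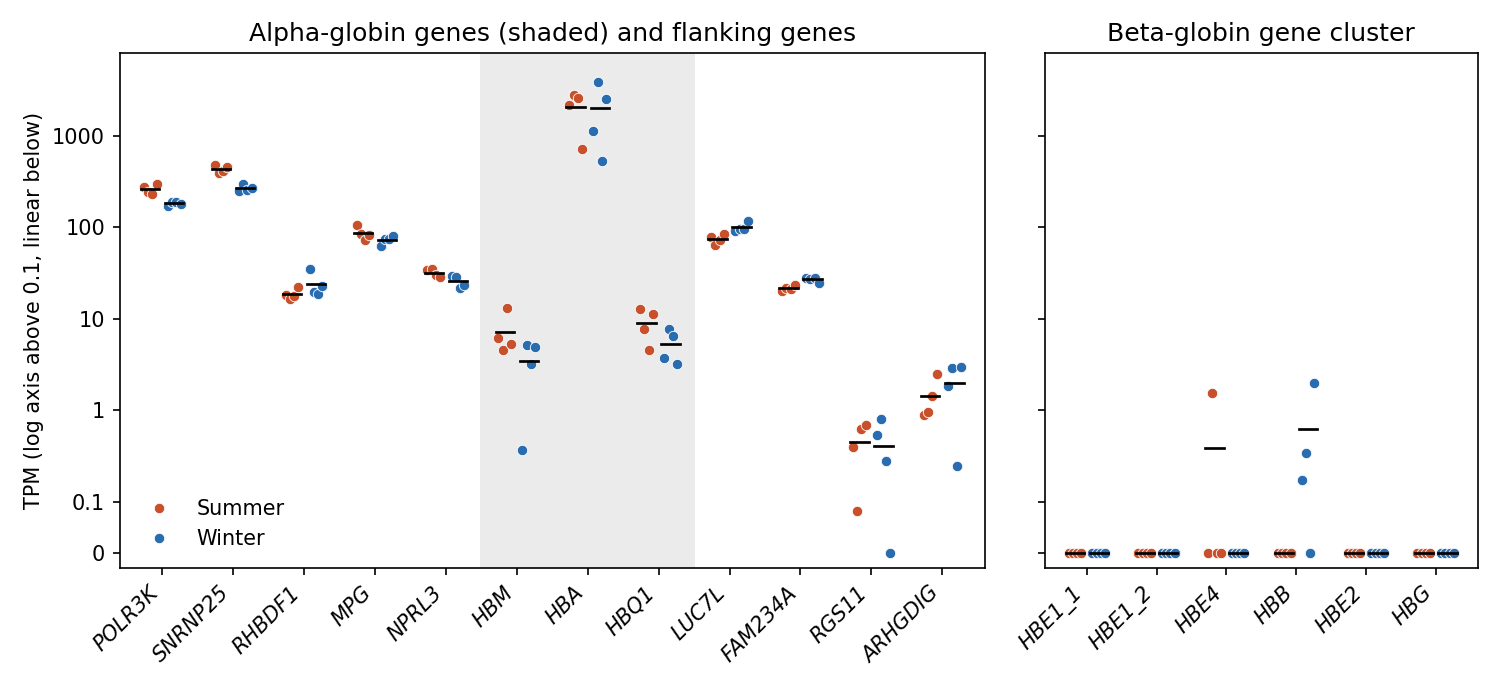
TPM of the alpha-globin genes and their flanking genes in gene order (left, globin genes shaded) and of the beta-globin cluster genes (right), with summer left of winter, 1 point per library and a bar at the season mean, on an axis that is logarithmic above 0.1 TPM and linear below. The 3 alpha-cluster genes are above 0 in all 8 libraries, and the 6 beta-cluster genes stay at or below 2.01 TPM.

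Because HBA is the emblem of the red blood cell, the other genes of that cell were read in the same libraries. Of 27 listed erythrocyte and erythroid genes, 22 were in the table and 6 of them were listed at 0 in all 8 libraries, namely the glycophorin gene GYPB, the blood group genes RHAG and KEL, the carbonic anhydrase gene CA1, TRIM58 and ALAS2. Another 6 never reached 1 TPM, including the erythroid transcription factor genes GATA1, which appeared in summer B alone (0.0772 TPM), and KLF1, in summer C alone (0.153 TPM). Summed over the list, the markers came to 717 to 1176 TPM in summer and 642 to 875 TPM in winter. Most of that sum came from genes that many cell types use, BPGM, which makes 2,3-bisphosphoglycerate, at 512 to 683 TPM in summer and 215 to 401 TPM in winter, and SLC2A1, the glucose transporter, at 91.6 to 453 TPM in summer and 235 to 353 TPM in winter. Of 8 listed platelet genes in the table, 2 were at 0 in all 8 libraries, while the integrin gene ITGB3, which other cells use too, held 27.9 to 38.3 TPM in summer and 37.1 to 56.6 TPM in winter. The leukocyte genes did not differ one way. PTPRC, the pan-leukocyte antigen CD45, held 0 to 0.0906 TPM in summer and 0.116 to 1.05 TPM in winter and was too low to be tested, and CSF1R, a macrophage receptor, held 47.1 to 55.2 TPM in summer and 17.4 to 44.0 TPM in winter. The leukocyte list as a whole summed to 57.1 to 117 TPM in summer and 27.5 to 673 TPM in winter, the top value being set by CD74 in winter A (616 TPM). Which library ranked highest depended on the leukocyte gene. CD74 and the sum were highest in winter A, CSF1R in summer B, and PTPRC in winter B, the library with the most HBA. A relation of leukocyte genes to HBA was not tested.

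The libraries carried the transcripts of oocytes together with those of follicle cells. The oocyte growth factor gene GDF9 held 872 to 1158 TPM in summer libraries and 289 to 731 TPM in winter libraries. The 20 oocyte markers summed to 19410 to 22194 TPM in summer and 6069 to 13981 TPM in winter, and all 20 differences were positive. The 18 cumulus and granulosa markers summed to 8160 to 11638 TPM in summer and 9393 to 37327 TPM in winter, the highest in winter E, and 17 of 18 differences were negative. The 13 theca and stroma markers summed to 201 to 294 TPM in summer and 464 to 2460 TPM in winter, and all 11 differences tested were negative. Fewer cells of a type and less RNA per cell cannot be told apart in such pools. The part of these lists in the season differences below was not tested.

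To ask whether the season changed these genes, the libraries were compared with limma over the 13379 genes that passed a limit on low values in all 4 libraries of a season. A call needed an adjusted p below 0.05 together with a difference of 2-fold or more, which 9.57% of all genes tested met, while 26.8% met the p limit alone. By this rule 4.40% of all genes tested rose and 5.17% fell. Among the markers, 17 of 20 oocyte genes rose and none fell, 10 of 11 theca and stroma genes fell, and 1 of 18 cumulus and granulosa genes, 1 of 6 endothelial genes and 1 of 4 leukocyte genes tested fell. The leukocyte gene that fell was CD68 (difference -1.84, adjusted p = 0.0266, limma), and the difference of CSF1R was 0.86 (adjusted p = 0.0265, limma), not called. Of the 8 members, 3 passed the limit on low values, HBA, ALAS1 and FECH, and 0 of the 3 were called, with 0 at an unadjusted p under 0.05. HBA averaged 2070.5 ± 948 TPM in summer and 2002 ± 1484 TPM in winter (difference 0.24, SE 0.60, adjusted p = 0.784, limma). The 95% confidence interval of the difference ran from -1.09 to 1.57, so differences of 2-fold in either direction lie within the error. For ALAS1 the means were 73.4 ± 9.36 TPM in summer and 88.4 ± 23.2 TPM in winter (difference -0.23, interval -0.67 to 0.20, adjusted p = 0.390, limma). For FECH they were 32.1 ± 7.32 TPM in summer and 29.2 ± 6.40 TPM in winter (difference 0.13, interval -0.36 to 0.62, adjusted p = 0.678, limma). For ALAS1 and FECH, a 2-fold difference lies outside the interval. The direction of HBA turned to -0.27 without winter D, the library with the lowest HBA. The 5 other members did not pass the limit and are not compared.

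Among the other globins, HBM and HBQ1 passed the limit and 0 of the 2 were called, with 0 at an unadjusted p under 0.05. HBM averaged 7.23 ± 3.92 TPM in summer and 3.44 ± 2.22 TPM in winter (difference 1.002, interval -0.09 to 2.09, adjusted p = 0.149, limma). HBQ1 averaged 9.11 ± 3.70 TPM in summer and 5.24 ± 2.15 TPM in winter (difference 0.68, interval -0.11 to 1.46, adjusted p = 0.171, limma). Winter A held the lowest HBM of all libraries, and without it the difference of HBM was 0.51.

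Levels of HBA were then related to those of 4 other genes over the 8 libraries, on the log2(TPM + 1) scale. These 4 relations were chosen after the values were seen. Their p values, adjusted over these 4 alone, are therefore a description and not an independent test. For its cluster neighbours the relation was weak, with r = 0.42 and rho = 0.29 for HBM (exact permutation p = 0.335 and 0.501) and r = -0.11 and rho = -0.02 for HBQ1 (exact permutation p = 0.783 and 0.977). Both heme enzymes had negative coefficients. For ALAS1, r was -0.75 and rho -0.57 (two-sided exact permutation p = 0.0406 and 0.151), and for FECH r was -0.73 and rho -0.81 (two-sided exact permutation p = 0.0458 and 0.0218). Adjusted over the 4 relations, the p values for r were 0.0917 for both ALAS1 and FECH and those for rho 0.302 and 0.0871, so none passed 0.05 by this exact permutation test. Without the 2 libraries farthest from the median HBA, r was 0.75 for HBM, 0.34 for HBQ1, -0.64 for ALAS1 and -0.73 for FECH.

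Over the same 8 libraries, the named genes whose levels were most like HBA, out of 12608 tested genes with a symbol, were AFMID, an arylformamidase of tryptophan breakdown (r = 0.92, at a mean of 1.82 TPM), DECR2, a peroxisomal enzyme of fatty acid oxidation (r = 0.89, 20.1 TPM), and IL4I1, an amino acid oxidase (r = 0.89, 4.25 TPM). DECR2 lies on the chromosome of HBA, with 11 protein-coding genes between them, and ranged from 18.3 to 22.8 TPM in summer and from 17.8 to 20.9 TPM in winter, far less than HBA did. The nearest to ALAS1 were LAP3, a leucine aminopeptidase (r = 0.95), C16H1orf105 (r = 0.94) and RBL2, a retinoblastoma-like protein (r = 0.94). Among the nearest to FECH were BICD1, a dynein adaptor (r = 0.93), and FAM163A (r = 0.88). These are the highest of many correlations and are given as a description.

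The listed heme synthesis enzymes were expressed in every library apart from ALAS2. The 8 enzyme genes together made up 443 to 564 TPM in summer and 379 to 460 TPM in winter. ALAD, the enzyme that joins aminolevulinate molecules into porphobilinogen, was the most abundant, at 356, 236, 355 and 306 TPM in summer A, B, C and E, against 207, 224, 220 and 216 TPM in winter A, B, D and E. All 4 summer libraries were above all 4 winter libraries, a separation that 29.5% of tested genes showed. Its difference was 0.51 (SE 0.15, adjusted p = 0.0283, limma), past the p limit but under 2-fold and so not called. Its adjusted p ranged from 0.0208 to 0.0804 over the fits that each left out 1 library (limma). UROS, the uroporphyrinogen synthase, stood at 30.3, 45.5, 46.1 and 46.8 TPM in summer A, B, C and E, against 18.5, 41.2, 27.8 and 18.6 TPM in winter A, B, D and E. Winter B overlapped with the summer libraries, and the difference of 0.70 had an adjusted p of 0.0697 (limma). Over the fits that each left out 1 library, the adjusted p of UROS ranged from 0.0148 to 0.168 (limma). It was 0.04 with median centring and 0.014 with array weights (limma). The difference stayed under 2-fold in all of these fits.

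The other listed enzymes overlapped between the seasons. UROD, which decarboxylates uroporphyrinogen, averaged 31.4 ± 4.74 TPM in summer and 28.9 ± 2.57 TPM in winter. CPOX, the coproporphyrinogen oxidase, averaged 17.4 ± 5.77 TPM in summer and 19.3 ± 3.50 TPM in winter, and PPOX, the protoporphyrinogen oxidase, 18.7 ± 0.561 and 20.4 ± 4.72 TPM. Their differences lay between -0.19 and 0.10, and the adjusted p values between 0.616 and 0.719 (limma). Of the 7 enzymes tested, 0 were called, with a median difference of 0.10 against -0.03 over all genes tested. An adjusted p under 0.05 (limma) was reached by 1 of the 7, against 26.8% of all genes tested.

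**Figure D3:**
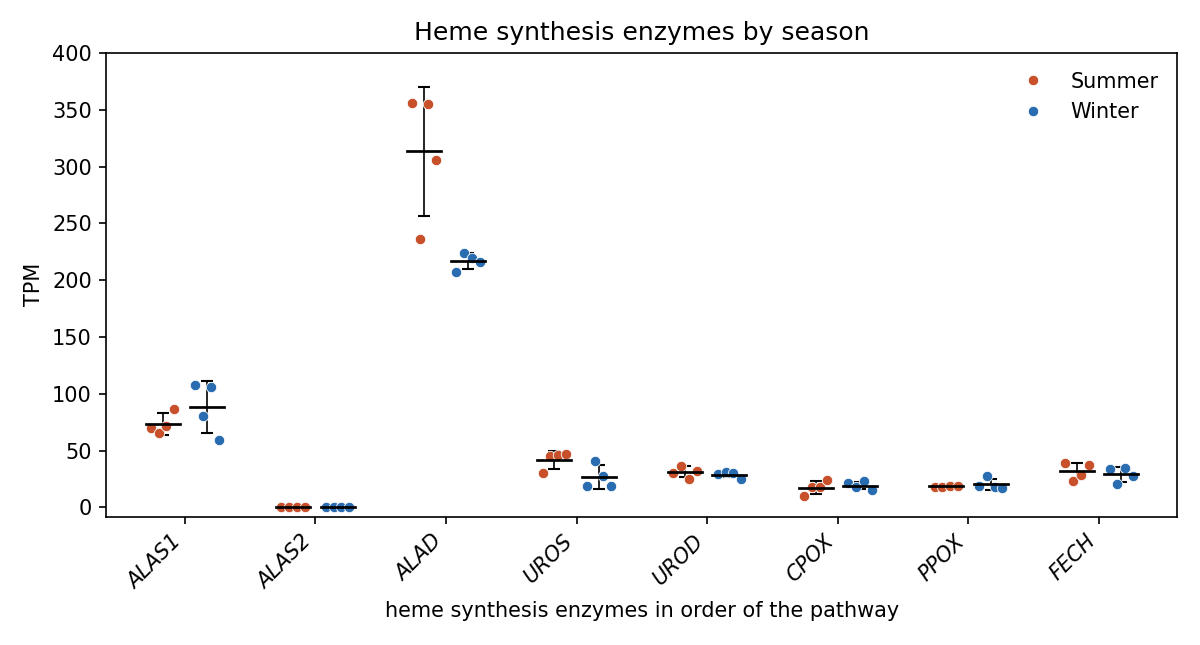
TPM of the 8 listed heme synthesis enzymes in pathway order, with summer left of winter, 1 point per library and mean ± SD (n = 4 each). ALAD is the highest, with 4 summer libraries from 236 to 356 TPM above 4 winter libraries from 207 to 224 TPM, and ALAS2 is at 0 throughout.

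Genes that carry heme, porphyrins and their precursors were also expressed throughout. All 13 genes of this list passed the limit on low values and 0 were called, with a median difference of 0.13. The p limit alone (adjusted p under 0.05, limma) was met by 1 of the 13, against 26.8% of all genes tested. SLC25A39, the mitochondrial glutathione carrier, was the most abundant (213 ± 27.7 TPM in summer and 289 ± 68.7 TPM in winter). The smallest p belonged to ABCB6, a porphyrin transporter, at 18.2, 26.0, 32.4 and 23.0 TPM in summer A, B, C and E, against 34.1, 43.2, 53.5 and 47.3 TPM in winter A, B, D and E (difference -0.83, SE 0.21, adjusted p = 0.0175, limma). Its seasons did not overlap, but the difference was under 2-fold. SLC25A38, which brings glycine into mitochondria for aminolevulinate synthesis, averaged 48.0 ± 11.0 TPM in summer and 36.0 ± 4.40 TPM in winter (adjusted p = 0.127, limma).

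Regulators of aminolevulinate synthase and of erythroid genes had 11 of 13 tested and 0 called, with a median difference of 0.31. None of the 11 had an adjusted p under 0.05 (limma), against 26.8% of all genes tested. LONP1, a mitochondrial protease that degrades ALAS1, was the most abundant, averaging 135 ± 17.5 TPM in summer and 182 ± 38.4 TPM in winter (difference -0.41, adjusted p = 0.0915, limma). CLPX, the unfoldase that activates aminolevulinate synthase, averaged 107 ± 7.83 TPM in summer and 74.1 ± 21.7 TPM in winter (difference 0.59, adjusted p = 0.0722, limma). Its winter E value was 41.7 TPM, with the other winter libraries at 84.0 to 86.7 TPM. Some blood regulators were present at low levels, unlike GATA1 and KLF1. TAL1, a transcription factor of blood stem cells, stood at 4.03, 3.74, 4.57 and 10.3 TPM in summer A, B, C and E, against 3.57, 2.27, 1.28 and 1.58 TPM in winter A, B, D and E (difference 1.02, adjusted p = 0.0544, limma). EPOR, the erythropoietin receptor, averaged 7.57 ± 1.95 TPM in summer and 3.58 ± 2.67 TPM in winter (difference 1.06, adjusted p = 0.0703, limma). TAL1 was called without winter A (1.22) and EPOR without winter B (1.40), and both were called under median centring, quantile normalization and array weights, as was TAL1 without the variance trend. Neither was called in the fit used throughout, with all 8 libraries, TPM as deposited, equal library weights and the variance trend.

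Among genes of heme breakdown and heme sensing, 1 of 14 fell in summer and none rose, with a median difference of -0.35. That share is close to the 5.17% of all genes tested that fell. The gene that fell was BACH1, the repressor that heme releases from the heme oxygenase gene, at 4.50, 10.3, 6.59 and 10.4 TPM in summer A, B, C and E, against 33.9, 21.6, 24.6 and 18.4 TPM in winter A, B, D and E. All summer libraries were below all winter libraries (difference -1.55, SE 0.29, adjusted p = 0.00673, limma). The call held in each of the 8 fits that left out 1 library. It was lost in a fit with the library letter as a block (adjusted p = 0.0635, limma). Heme oxygenase itself, HMOX1, stood at 126, 43.9, 38.9 and 42.0 TPM in summer A, B, C and E, against 64.9, 37.2, 81.6 and 113 TPM in winter A, B, D and E, with full overlap (difference -0.32, adjusted p = 0.574, limma). HMOX2, the constitutive form, averaged 79.2 ± 10.5 TPM in summer and 75.0 ± 23.1 TPM in winter. EIF2AK1, the heme-regulated kinase that halts translation when heme is scarce, was the most abundant of the list, at 168, 241, 212 and 229 TPM in summer A, B, C and E, against 125, 152, 120 and 107 TPM in winter A, B, D and E. Its difference of 0.75 had an adjusted p of 0.00910 (limma) and was under 2-fold.

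Among the heme and iron lists, the iron genes held the most calls. Of 20 tested genes of iron uptake, storage and export, 4 fell in summer and none rose, with a median difference of -0.49, against 5.17% of all genes tested that fell. Without winter D, 1 of these 4, SLC25A37, kept its call. SLC25A37, mitoferrin of the inner mitochondrial membrane, stood at 4.72, 9.36, 9.80 and 10.7 TPM in summer A, B, C and E, against 18.6, 18.7, 17.3 and 20.3 TPM in winter A, B, D and E (difference -1.08, SE 0.25, adjusted p = 0.0127, limma). The call was lost without summer A (-0.85), with a pseudocount of 5 (-0.82), after quantile normalization (-0.96) and with array weights (-0.91). SLC39A8, a zinc and iron importer, stood at 27.3, 15.6, 2.98 and 16.7 TPM in summer A, B, C and E, against 31.0, 50.0, 82.6 and 69.1 TPM in winter A, B, D and E. The seasons did not overlap (difference -2.05, SE 0.53, adjusted p = 0.0199, limma), and the call was lost without winter D (-1.85) or winter E (-1.94). STEAP2, a metalloreductase, fell by 1.43 on the log2 scale (adjusted p = 0.0306, limma) but lost its call without summer B (-1.48), summer C (-1.40), summer E (-1.37), winter D (-0.97) or winter E (-1.54), and also with a pseudocount of 5, with no filter on low values and after quantile normalization. TF, the transferrin gene, averaged 0.758 ± 0.331 TPM in summer and 5.90 ± 6.09 TPM in winter (difference -1.61, adjusted p = 0.0414, limma), and of the 8 fits that left out 1 library it was called in those without winter A or winter E, the differences lying between -1.97 and -1.09. TF was also not called with a pseudocount of 5, with no filter or a mean of at least 1 TPM as the filter, or after quantile normalization.

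The ferritin subunits and the PCBP iron chaperones were also set against each other, as pairs chosen after their values were seen and so with no test of the ratios. FTL, the light chain, was the most abundant iron gene over all libraries, at 2171, 1876, 1866 and 1872 TPM in summer A, B, C and E, against 1544, 2054, 1880 and 1590 TPM in winter A, B, D and E (difference 0.15, interval -0.19 to 0.48, adjusted p = 0.490, limma). FTH1, the heavy chain with ferroxidase activity, stood at 1631, 1287, 1271 and 1167 TPM in summer A, B, C and E, against 2158, 2461, 2425 and 2084 TPM in winter A, B, D and E (difference -0.78, SE 0.15, adjusted p = 0.00786, limma). The ratio of FTH1 to FTL was therefore 0.623 to 0.751 in summer libraries and 1.198 to 1.40 in winter libraries, a difference of -0.92 in the log2 ratio. The ratio of PCBP1 to PCBP2, proteins that hand iron to ferritin and also bind RNA, ran the other way, from 1.45 to 1.62 in summer and from 0.671 to 0.913 in winter (difference of 0.94 in the log2 ratio). Copies of ferritin genes can share reads, and their values are uncertain to that extent. TFRC, the transferrin receptor, averaged 52.3 ± 13.9 TPM in summer and 75.1 ± 22.4 TPM in winter (adjusted p = 0.178, limma).

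Iron-sulfur cluster assembly, which competes with heme for mitochondrial iron, had 15 of 15 genes tested and 0 called, with a median difference of -0.20. Of the 15, 3 had an adjusted p under 0.05 (limma), against 26.8% of all genes tested. GLRX5, a glutaredoxin that passes clusters on, was the most abundant (309 ± 57.1 TPM in summer and 393 ± 78.2 TPM in winter). FDX2, the ferredoxin of this pathway, stood at 103, 86.8, 83.1 and 102 TPM in summer A, B, C and E, against 52.2, 56.3, 50.3 and 47.3 TPM in winter A, B, D and E. The seasons were far apart relative to their spread (difference 0.85, SE 0.13, adjusted p = 0.00470, limma), yet under 2-fold. Of 7 genes that clear free hemoglobin and heme, 3 passed the limit and 1 fell, against 5.17% of all genes tested that fell. The gene was LRP1, the receptor of heme bound to hemopexin (44.7 ± 17.7 TPM in summer and 111 ± 40.5 TPM in winter, difference -1.32, adjusted p = 0.0249, limma). Its seasons overlapped, with 62.0 TPM in summer E and 57.1 TPM in winter A. It lost its call without summer A (-0.98), summer B (-1.39), winter B (-1.17), winter D (-1.18) or winter E (-1.33), and with no filter on low values. HP and HPX, which encode the plasma scavengers haptoglobin and hemopexin, reached at most 2.52 and 0.0357 TPM in summer and 2.56 and 0.158 TPM in winter.

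**Figure D4:**
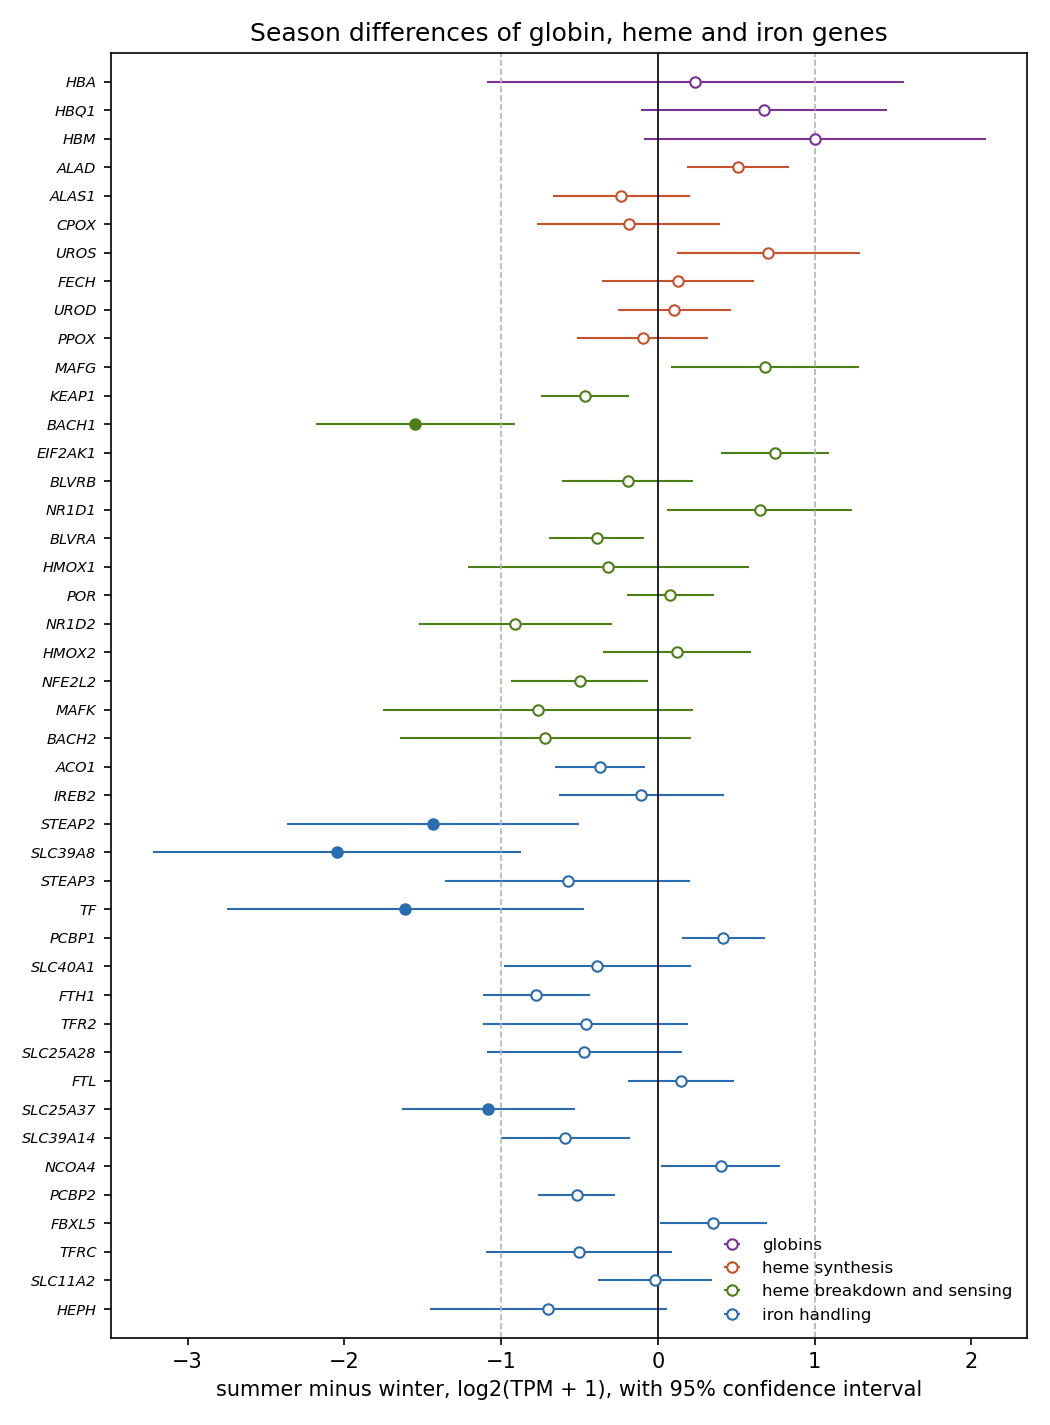
Summer minus winter difference on the log2(TPM + 1) scale with its 95% confidence interval for 44 tested genes of the globin, heme synthesis, heme breakdown and sensing, and iron lists, with called genes as filled points and dashed lines at a 2-fold difference. BACH1, STEAP2, SLC39A8, TF and SLC25A37 are the called genes of these lists and all lie on the side lower in summer, and the interval of HBA runs from -1.09 to 1.57.

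Of the erythroid list, 8 of 22 genes passed the limit, 2 rose and 1 fell, with a median difference of 0.27, against 4.40% of all genes tested that rose and 5.17% that fell. BPGM rose to 613 ± 72.6 TPM in summer, against 298 ± 81.1 TPM in winter (difference 1.07, SE 0.19, adjusted p = 0.00592, limma), and its difference was 0.93 without winter E, which ended the call. SPTB, the erythroid beta-spectrin that muscle and brain also use, rose to 14.5 ± 0.609 TPM in summer, against 6.80 ± 2.99 TPM in winter (difference 1.06, adjusted p = 0.0182, limma), with no call without winter D (0.92) or winter E (0.93) or with a pseudocount of 5 (0.76). GYPC, a glycophorin found on many cell types, fell to 15.8 ± 3.74 TPM in summer, against 34.7 ± 14.6 TPM in winter (difference -1.03, adjusted p = 0.0249, limma), with no call without summer C (-0.89), summer E (-1.01) or winter A (-0.79), with a pseudocount of 5, after median centring or quantile normalization, or with array weights. The defining red cell genes of this list, at 0 or under 1 TPM, gave no comparison.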

How the data were processed

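The authors extracted RNA from pooled oocytes, made libraries from polyadenylated RNA, sequenced paired reads and deposited TPM per gene. According to the methods, reads were mapped in CLC Genomics Workbench, whereas Bowtie2 2.2.2, bcl2fastq, DESeq2 and ARS-UCD1.2 are listed in the submitters' processing notes. Which route gave the table is not settled. TPM totals are equal in all libraries and the depth is unknown. A symbol was given for 20573 of 26804 genes. The libraries listed 14477 to 16448 genes above 0.

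From the deposited TPM, a half-Gaussian was fitted to log2 TPM per library (zFPKM). Genes above -3 in all 4 libraries of a season, 13379 in all, entered a linear model of log2(TPM + 1) in limma 3.58.1 under R 4.3.3, with moderated variances and a mean-variance trend. The design held season alone, and p-values were adjusted by Benjamini-Hochberg. Calls needed an adjusted p below 0.05 and a log2 difference of 1 or more in size. P-values measure the spread between pools. In data simulated for this comparison over 13379 genes, 89.0% of 100 genes changed 4-fold were called, as were 7 of 13179 unchanged genes. The simulation used independent normal noise and changed 200 genes, all with a mean log2(TPM + 1) above 3. Recovery among lower genes, or with more genes changed, was not tested.

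The members and the lists were chosen with earlier results of these data known. Some genes of the lists are not reported here. The rule for named genes took the members, the other globins, the heme enzymes, the most abundant gene and up to 3 called genes of each list, and the 3 genes most like HBA, ALAS1 and FECH. ABCB6, SLC25A38, CLPX, TAL1, EPOR, HMOX1, HMOX2, TF, FTH1, PCBP1, PCBP2, TFRC, FDX2, HP, HPX, PTPRC, CSF1R, CD68, ITGB3, GATA1, KLF1, the genes flanking the globin clusters and single marker genes fall outside it and were named after their values were seen, as were the 4 relations with HBA. Results were recomputed with other pseudocounts, filters, scalings, moderation, weights and thresholds, a block for the letter, and leaving out each library.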

Additional observations from a re-analysis of the deposited data

Results flagged for a closer look

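In 11 cases, 1 library of a season lay far from the other 3. Chance alone flags about 1 in 20 groups of this size, and 100 were screened. Several rest on values near 0. AHSP was 0.580 TPM in summer E and 0 in the other summer libraries. MB (0.348 TPM) and HBE4 (1.56 TPM) were above 0 in summer B alone among the summer libraries. SLC4A1 reached 0.463 TPM in winter D, with the other winter libraries at or below 0.0364 TPM, and NGB reached 1.83 TPM in winter B, with the others between 0.475 and 0.556 TPM.

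The others concern expressed genes. In summer A, UROS was low (30.3 TPM, the others 45.5 to 46.8 TPM), FTL was high (2171 TPM, the others 1866 to 1876 TPM) and so was HMOX1 (126 TPM, the others 38.9 to 43.9 TPM). TAL1 was high in summer E (10.3 TPM, the others 3.74 to 4.57 TPM). In winter E, UROD was low (25.1 TPM, the others 29.9 to 30.8 TPM). STEAP2 was high in winter D (21.4 TPM, the others 4.20 to 5.74 TPM). The screen did not cover every gene named above. CLPX was low in winter E (41.7 TPM, the others 84.0 to 86.7 TPM). CD74 was high in winter A (616 TPM, the others 2.16 to 22.4 TPM).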

How the results depend on the processing

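Of the 8 members, 3 could be tested in most alternatives, 4 without summer E and 7 with no filter on low values, and none of those tested was called. ALAS2 was tested in none. With an adjusted p under 0.05 as the only criterion, 1 heme enzyme was called (ALAD), and under the others none was. Differences near 0 changed direction. That of FECH was -0.13 with array weights, and with letters taken as a replicate block that of HBA was -0.44. Leaving out each library in turn gave ranges of -0.27 to 0.70 for HBA, -0.014 to 0.27 for FECH, -0.35 to 0.053 for CPOX and -0.17 to 0.047 for PPOX. The causes were not tested. The same herd was sampled in both seasons, but letters C and D each occur in 1 season, and the letters are not known to mark the same cows. Deviations from the season mean correlated at 0.05 for letter A, 0.14 for B and 0.20 for E, and each of these libraries correlated best with its own letter. With this replicate block, 179 genes were higher and 296 lower, against 589 and 692 without it, and BACH1 (-1.48), SLC25A37 (-1.19), SLC39A8 (-1.26), STEAP2 (-0.93), TF (-0.95), SPTB (0.94) and GYPC (-0.96) were not called. Over all genes, 295 were higher and 361 lower with a pseudocount of 5, and 1995 and 1594 with the adjusted p alone. Under the 3 other scalings the number higher ran from 518 to 733 and the number lower from 585 to 830. Without winter E, 270 were higher, and without winter B 983 were. The depth is unknown, so values near 0 cannot be told from absence.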
